A study of Mus musculus with 8 samples.

Results

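Of the 19348 genes in the deposited tables, 10 were chosen by symbol as adipokines, the proteins that fat tissue secretes into blood or releases to its neighbours. They were Adipoq, Lep, Retn, Cfd, Rarres2, Nampt, Rbp4, Apln, Sfrp5 and Nrg4, and each symbol matched 1 row, 10 of 10. RNA-seq had been done on liver and on epididymal white adipose tissue (eWAT), a visceral fat depot attached to the epididymis, of male C57BL/6 mice aged 12 weeks. Each tissue had 2 libraries labelled Crtc1-/- and 2 labelled Crtc1+/+, which made 4 groups and 8 libraries in all. Crtc1-/- stands for a whole-body deletion aimed by CRISPR at exons 2 to 4 of Crtc1, which encodes a coactivator of the transcription factor CREB. Crtc1+/+ stands for wild-type littermates, and all mice had been fasted for 16 h, so no fed state was compared.

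Adipokines carry information from fat about how much energy is stored. Adiponectin and leptin act on liver, muscle and brain through dedicated receptors, while others, such as adipsin, chemerin and the retinol carrier RBP4, belong to families of blood proteins that the liver also makes. In eWAT most of them are known as products of the adipocyte itself, and their transcripts are often read as signs of adipocyte number and state.

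Counts per library came to between 16560070 and 19721464, and replicates differed by more than counting error, with correlations of log2 CPM (counts scaled to a common library size) across genes of 0.877 in the eWAT libraries labelled Crtc1-/-, 0.930 in the eWAT libraries labelled Crtc1+/+, and 0.975 and 0.981 in liver. Crtc1 counts were not lower in the libraries labelled Crtc1-/- (log2 fold change 0.48, adjusted p = 0.396 in eWAT, and 0.89, adjusted p = 0.184 in liver), so genotypes are given here as labels. Counts per gene do not show the targeted exons on their own. The eWAT libraries differed in makeup. The 18 adipocyte markers held 0.263% and 0.440% of the counts in the eWAT libraries labelled Crtc1+/+ and 4.27% and 2.38% in the eWAT libraries labelled Crtc1-/-, with none of the 18 at 0 in any eWAT library. The 22 epididymis markers held 8.57% and 9.92% in the eWAT libraries labelled Crtc1+/+, against 0.00382% and 0.00156% in the eWAT libraries labelled Crtc1-/-, where 7 and 4 of the 22 were at 0. The 13 hepatocyte markers, none of them at 0, took 18.8% to 22.6% of liver counts, 10.3% in eWAT replicate 2 labelled Crtc1-/- and 0.126% to 0.634% in the remaining 3 eWAT libraries. For most of the genes named, genotype changes in eWAT are therefore also given without that library, as are the tissue differences that turn on it.

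All 10 genes are protein-coding in the GENCODE annotation of GRCm38. Adipoq lies at chr16:23146536-23158028, Lep at chr6:29060220-29073877, Retn at chr8:3655770-3660110, Cfd at chr10:79890853-79892655 and Nampt at chr12:32819545-32853349, all on the plus strand. Rarres2 lies at chr6:48569696-48572789, Rbp4 at chr19:38116629-38125281, Apln at chrX:48025146-48034853, Sfrp5 at chr19:42197971-42202252 and Nrg4 at chr9:55220222-55326844, all on the minus strand. The counts are per gene over its exons, and whether they used strand is not given in the sources used here. Rarres2 overlaps Lrrc61 and Nrg4 overlaps Fbxo22 and Gm15625 on the opposite strand, and Nampt overlaps Gdap10 on its own, so reads of these 3 adipokines could not be told apart from those of their overlapping neighbours where exons coincide.

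RefSeq (GRCm38.p6) gave promoter windows for 9 of the 10 genes, from 250 bases before to 50 after the transcription start. The 250 bases before the start are printed for 4 adipokines, each 5′ to 3′ along the gene. Lep and Adipoq are shown because they rose together in eWAT, Nampt because its eWAT level did not follow theirs, and Nrg4 because its genotype difference was not the same in the 2 tissues. Capitals mark matches to any of 7 motifs searched on both strands, which were the cAMP response element (CRE) TGACGTCA, the CRE half-site TGACG that it contains, the nuclear receptor half-site AGGTCA, the C/EBP palindrome TTGCGCAA, the TATA box TATAAA, the CCAAT box and the E-box CACGTG. A motif on the opposite strand shows as its reverse complement.
Lep, chr6:29059971-29060220, plus strand: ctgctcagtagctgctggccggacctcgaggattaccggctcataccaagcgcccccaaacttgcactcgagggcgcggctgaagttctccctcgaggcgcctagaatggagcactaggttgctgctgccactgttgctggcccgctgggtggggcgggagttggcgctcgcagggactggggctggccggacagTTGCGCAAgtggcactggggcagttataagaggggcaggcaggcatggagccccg
Adipoq, chr16:23146286-23146535, plus strand: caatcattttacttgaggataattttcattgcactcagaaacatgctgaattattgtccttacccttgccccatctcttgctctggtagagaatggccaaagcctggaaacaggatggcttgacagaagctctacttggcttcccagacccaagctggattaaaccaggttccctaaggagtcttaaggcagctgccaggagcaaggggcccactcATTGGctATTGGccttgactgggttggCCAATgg
Nampt, chr12:32820085-32820334, plus strand: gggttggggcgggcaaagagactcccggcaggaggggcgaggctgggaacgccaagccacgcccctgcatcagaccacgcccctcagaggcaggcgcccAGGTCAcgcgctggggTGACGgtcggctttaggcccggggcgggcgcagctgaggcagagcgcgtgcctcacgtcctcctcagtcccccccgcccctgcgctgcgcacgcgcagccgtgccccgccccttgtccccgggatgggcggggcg
Nrg4, chr9:55283626-55283875, minus strand: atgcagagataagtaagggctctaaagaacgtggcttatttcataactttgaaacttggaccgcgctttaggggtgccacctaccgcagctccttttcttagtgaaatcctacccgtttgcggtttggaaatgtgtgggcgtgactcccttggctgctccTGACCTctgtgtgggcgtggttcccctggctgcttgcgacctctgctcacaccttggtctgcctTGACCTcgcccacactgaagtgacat
The Lep window held TTGCGCAA from 55 to 48 bases before the start, a string found in 0.183% of the 32851 promoter windows of RefSeq. Adipoq held 3 copies of the CCAAT box within 34 bases of its start, a string in 37.4% of windows. Nampt held the nuclear receptor half-site and the CRE half-site, found in 16.3% and 20.8% of windows, and Nrg4 held the nuclear receptor half-site on the opposite strand in 2 places. The full windows of Retn, Cfd and Apln held none of the 7 strings, that of Sfrp5 held a CRE half-site and a CCAAT box, and one of the 2 windows of Rbp4 held a CRE half-site and a TATA box, the other a CCAAT box. The CRE, the TATA box and the E-box were in 1.79%, 13.6% and 7.15% of windows. The windows also differed in CG dinucleotides, with 0 in Adipoq, 2 each in Retn and Cfd, 13 in Nrg4, 15 each in Apln and Sfrp5, 19 in Lep, 36 in Nampt and 5 and 40 in the 2 windows of Rbp4, against a median of 7 over all windows. A match is only a string of letters. The RefSeq starts of Nampt and Nrg4 lie inside the GENCODE gene bodies, so other starts of these genes are not covered.

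The first comparison asked how adipokine transcripts differed between the labelled genotypes in eWAT. Of the 10 adipokines, 7 rose in the eWAT libraries labelled Crtc1-/- at an adjusted p under 0.05 (edgeR's quasi-likelihood test, adjusted over every gene tested by the Benjamini-Hochberg method), namely Nrg4, Rarres2, Lep, Adipoq, Retn, Apln and Sfrp5, although none of these 7 was called and Rarres2, Apln and Sfrp5 turned below 0 when the libraries were scaled on adipocyte markers. Of all 15391 genes tested, 6.65% rose. These were 1023 of 1875 called genes, and the higher side held 587 of 1662 with library-size scaling, 744 of 1740 with upper-quartile scaling and 17 of 13626 with scaling on the adipocyte markers. At the threshold that the study used (absolute log2 fold change over 1 and unadjusted p under 0.01) 8 of the 10 were higher, against 8.37% of all genes. For 9 of the 10 both libraries labelled Crtc1-/- lay above both labelled Crtc1+/+, against 31.3% of all genes, and Nampt was the exception. The median log2 fold change was 3.49 over the 10 adipokines and -0.05 over all genes. These counts rest on both wild-type libraries, since without eWAT replicate 1 labelled Crtc1+/+ or replicate 2 no adipokine, and no gene of all those tested, had an adjusted p under 0.05, while the fold changes of the 7 stayed between 2.58 and 5.06. A 2 against 2 exact permutation test cannot give a p below 0.333. The adipocyte markers moved with the adipokines (18 of 18 higher, 12 of them called, median 3.45), as did 10 of 10 endothelial markers (0.0392% and 0.0394% of counts against 0.532% and 0.305%), and the epididymis markers moved the other way (21 of 22 called lower). In bulk tissue, fewer cells of a type and less RNA per cell cannot be told apart.

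Adipoq encodes adiponectin, a hormone that improves insulin sensitivity. Adipoq was at 123 and 226 CPM (scaled by TMM within eWAT) in the eWAT libraries labelled Crtc1+/+ and at 2801 and 1588 CPM in the eWAT libraries labelled Crtc1-/-. The lower of the Crtc1-/- libraries stood well above the higher of the Crtc1+/+ libraries. The fitted change was 3.65 on the log2 scale (SE, the standard error of the fit, 0.60, adjusted p = 0.0287), or 12.5-fold, and it was 3.95 (adjusted p = 0.00918) without eWAT replicate 2 labelled Crtc1-/-.

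Lep encodes leptin, which signals fat stores to the hypothalamus. Lep was at 11.01 and 30.3 CPM in the eWAT libraries labelled Crtc1+/+ and at 464 and 257 CPM in the eWAT libraries labelled Crtc1-/-, and the groups did not overlap. With a log2 fold change of 4.13 (SE 0.67, adjusted p = 0.0287) it rose most among the 7 called adipokines in the fit of 4 libraries, and the change was 4.43 (adjusted p = 0.0155) without eWAT replicate 2 labelled Crtc1-/-.

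Retn encodes resistin, a cysteine-rich protein that in mice comes from adipocytes and opposes insulin action. Retn was at 83.3 and 116 CPM in the eWAT libraries labelled Crtc1+/+ and at 1946 and 695 CPM in the eWAT libraries labelled Crtc1-/-. Replicate 1 of the Crtc1-/- libraries was the higher one, as it was for Adipoq, Lep, Cfd, Apln and Nrg4. The log2 fold change was 3.73 (SE 0.66, adjusted p = 0.0337), and 4.25 without eWAT replicate 2 labelled Crtc1-/-. Without replicate 1 of that group, the higher one, it was 2.81. Retn lost its call with limma on quantile-normalized log2(FPKM + 1) and log2(FPKM + 0.1) (adjusted p = 0.0595 and 0.0656).

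Cfd encodes adipsin, the serine protease that cleaves complement factor B. Cfd was at 816 and 1111 CPM in the eWAT libraries labelled Crtc1+/+ and at 8770 and 4608 CPM in the eWAT libraries labelled Crtc1-/-, with no overlap. Its log2 fold change of 2.79 (SE 0.62) missed the threshold narrowly (adjusted p = 0.0519), and 6 of 16 alternative settings brought it past, among them leaving out eWAT replicate 2 labelled Crtc1-/- (3.14, adjusted p = 0.00739).

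Rarres2 encodes chemerin, a chemoattractant that also acts on adipocytes. Rarres2 was at 68.6 and 30.3 CPM in the eWAT libraries labelled Crtc1+/+ and at 421 and 555 CPM in the eWAT libraries labelled Crtc1-/-. Its log2 fold change was 3.30 (SE 0.53, adjusted p = 0.0280), and 3.08 (adjusted p = 0.0177) without eWAT replicate 2 labelled Crtc1-/-.

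Rbp4 encodes the carrier of retinol in plasma. Rbp4 was at 196 and 32.4 CPM in the eWAT libraries labelled Crtc1+/+ and at 355 and 5194 CPM in the eWAT libraries labelled Crtc1-/-, so the replicates within each genotype lay farther apart than those of any other adipokine in eWAT. Its log2 fold change of 4.60 had a SE of 1.63 and did not pass (adjusted p = 0.126). Without eWAT replicate 2 labelled Crtc1-/-, which was rich in hepatocyte markers, it was 1.65 (adjusted p = 0.287), and without replicate 1 of that group it was 5.52 (adjusted p = 0.0170).

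The remaining secreted factors were less abundant. Apln encodes apelin, a peptide that acts on vessels and heart through the receptor APJ, and was at 1.59 and 2.33 CPM in the eWAT libraries labelled Crtc1+/+ and at 18.8 and 9.44 CPM in the eWAT libraries labelled Crtc1-/- (log2 fold change 2.85, SE 0.59, adjusted p = 0.0440). Without eWAT replicate 1 labelled Crtc1-/- the adjusted p of Apln was 0.0850, and without replicate 2 of that group the change was 3.22 (adjusted p = 0.0357). Sfrp5 encodes a decoy that binds Wnt5a. It rested on 20 and 11 counts in the eWAT libraries labelled Crtc1+/+ and 97 and 148 in the eWAT libraries labelled Crtc1-/-, or 0.962 and 0.570 against 5.33 and 10.3 CPM, and had a log2 fold change of 3.33 (SE 0.70, adjusted p = 0.0464) that became 2.77 (adjusted p = 0.122) without eWAT replicate 2 labelled Crtc1-/-. Both groups of these 2 genes were separate despite the low counts. Apln and Sfrp5 lost their calls with library-size scaling (adjusted p = 0.0606 and 0.0559) and with upper-quartile scaling (adjusted p = 0.0508 and 0.0547). Each lost its call in 6 of 16 alternatives and turned below 0 in 2 more.

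Nrg4 encodes neuregulin 4, an EGF-like ligand of the receptor ErbB4 that fat releases and liver receives. Nrg4 was at 4.81 and 6.38 CPM in the eWAT libraries labelled Crtc1+/+ and at 90.6 and 74.2 CPM in the eWAT libraries labelled Crtc1-/-. Replicates lay close together, and Nrg4 had the smallest SE of the 10 (log2 fold change 3.88, SE 0.34, adjusted p = 0.0162), with 3.98 (adjusted p = 0.00802) without eWAT replicate 2 labelled Crtc1-/-.

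Nampt was the adipokine that did not move with the others. It encodes the enzyme that makes nicotinamide mononucleotide in the salvage route to NAD and is also found in plasma as visfatin. Nampt was at 21.6 and 41.6 CPM in the eWAT libraries labelled Crtc1+/+ and at 30.3 and 33.2 CPM in the eWAT libraries labelled Crtc1-/-, so the groups overlapped. Its log2 fold change was 0.005 (SE 0.41, adjusted p = 0.995), and over 16 alternatives it ran from -3.63 to 0.57, the lowest value coming from a scaling on adipocyte markers.

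**Figure D1:**
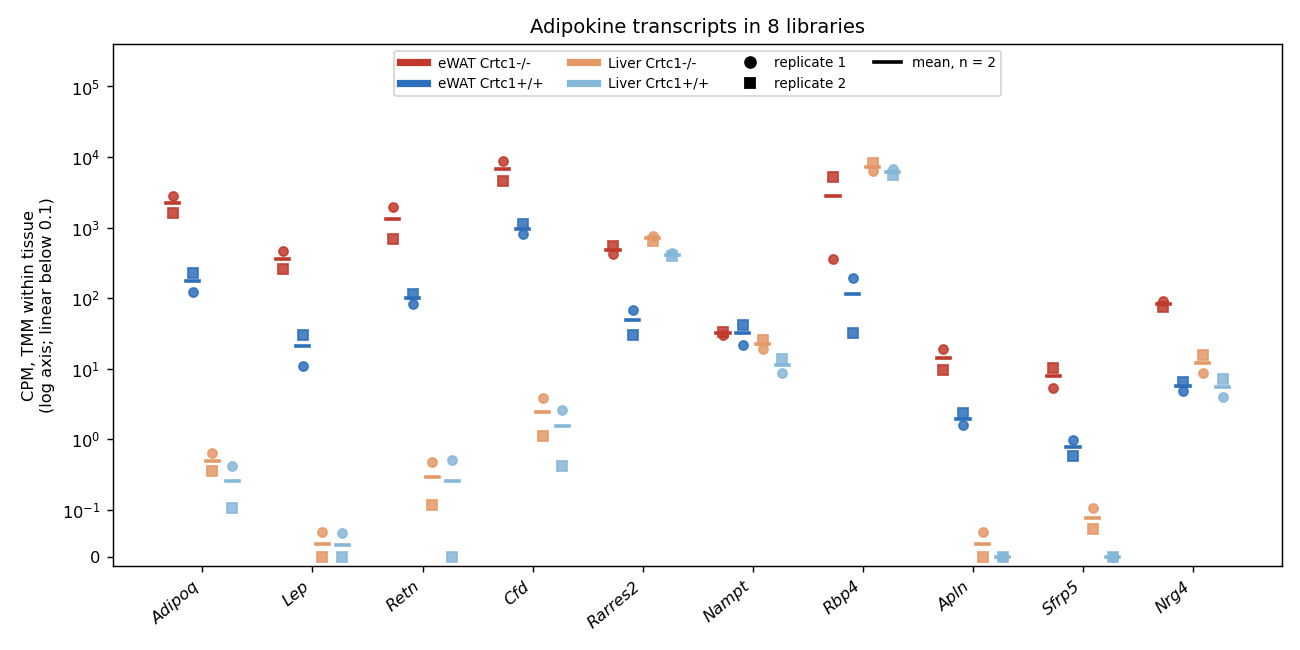
CPM of the 10 adipokines (log axis, linear below 0.1) in each of the 8 libraries, with horizontal bars for the mean of 2 libraries. In eWAT the red Crtc1-/- points lie above the blue Crtc1+/+ points for 9 of the 10 genes and overlap them for Nampt, and in liver Rbp4 and Rarres2 stand above the other 8.

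Adipokines were next set against the adipocyte markers of the same library, a ratio that does not depend on how the whole library was scaled. Per 1000 counts of the 18 adipocyte markers, Adipoq counted 53.2 and 56.3 in the eWAT libraries labelled Crtc1+/+ and 64.5 and 54.4 in the eWAT libraries labelled Crtc1-/-. These 4 values overlapped although Adipoq CPM differed 12.5-fold. Retn counted 35.9 and 28.8 against 44.8 and 23.8, which also overlapped. Lep counted 4.75 and 7.53 against 10.7 and 8.82, and Nrg4 2.07 and 1.59 against 2.09 and 2.55, so that both Crtc1-/- libraries were above both Crtc1+/+ libraries, though close to them. Cfd counted 352 and 276 against 202 and 158, and Apln 0.684 and 0.580 against 0.434 and 0.324, both lower in the Crtc1-/- libraries without overlap. Rarres2 (29.6 and 7.53 against 9.68 and 19.0), Sfrp5 (0.415 and 0.142 against 0.123 and 0.352) and Rbp4 (84.3 and 8.06 against 8.17 and 178) overlapped between the genotypes. Nampt counted 9.33 and 10.3 against 0.697 and 1.14, a ratio of the means of 0.0932.

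When the libraries were scaled on these markers in edgeR, 1 adipokine was called, Nampt, with a log2 fold change of -3.40 (adjusted p = 0.00017). The median over all genes on that scale was -3.58, so the value of Nampt lay near that of the typical gene. On that scale Adipoq was at 0.16 (adjusted p = 0.825), Lep at 0.70 (adjusted p = 0.247), Nrg4 at 0.38 (adjusted p = 0.613) and Cfd at -0.76 (adjusted p = 0.324), and the other 5 between -0.69 and 1.05, none of them passing. Several of the 18 markers are also liver transcripts. With the 4 whose lowest eWAT CPM was at least 10 times the highest liver CPM (Fabp4, Plin1, Slc2a4 and Aqp7), a choice made after seeing the data, Adipoq counted 222 and 194 per 1000 in the eWAT libraries labelled Crtc1+/+ and 147 and 157 in the eWAT libraries labelled Crtc1-/-. Those groups did not overlap and were lower in the Crtc1-/- libraries, unlike the ratio to all 18. Lep counted 19.8 and 25.9 against 24.3 and 25.4, and Nrg4 counted 8.67 and 5.46 against 4.76 and 7.33, so both overlapped on these 4 markers though not on all 18. Nampt counted 39.0 and 35.6 against 1.59 and 3.27, again without overlap.

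**Figure D2:**
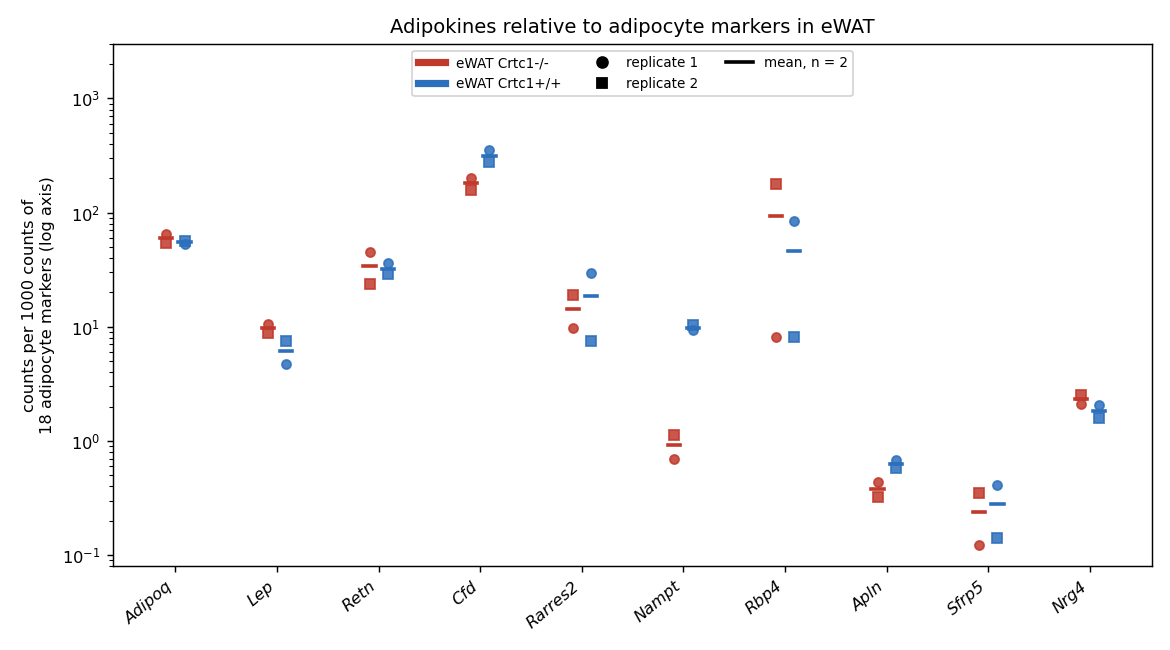
Counts of each adipokine per 1000 counts of 18 adipocyte markers (log axis) in the 4 eWAT libraries, with bars for the mean of 2. Adipoq and Retn overlap between the genotypes, and Nampt is at 9.33 and 10.3 in Crtc1+/+ against 0.697 and 1.14 in Crtc1-/-.

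**Figure D3:**
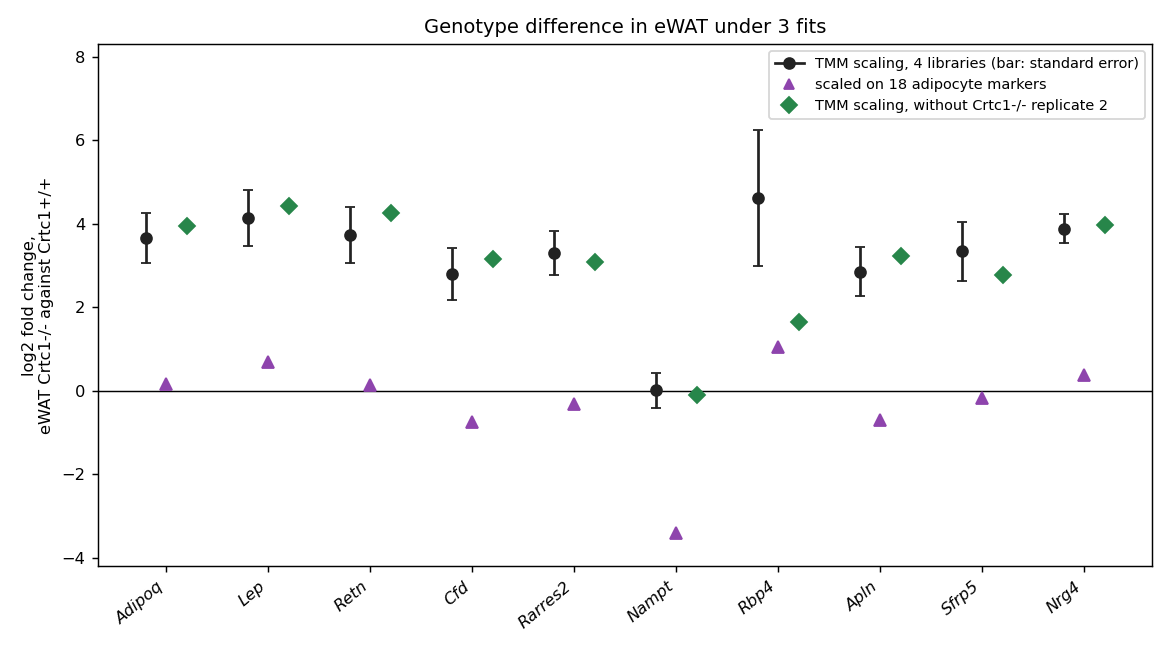
Log2 fold change of each adipokine in the eWAT libraries labelled Crtc1-/- against Crtc1+/+ with TMM scaling (black, bar for the standard error), scaled on 18 adipocyte markers (purple) and without eWAT replicate 2 labelled Crtc1-/- (green). On the marker scale Cfd, Rarres2, Nampt, Apln and Sfrp5 lie below 0, and without replicate 2 Rbp4 lies at 1.65 instead of 4.60.

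Because chemerin and RBP4 are also liver products, these 2 were set against hepatocyte markers. Per 1000 counts of the 13 hepatocyte markers, Rbp4 counted 34.6 and 26.3 in the liver libraries labelled Crtc1+/+ and 34.0 and 37.2 in the liver libraries labelled Crtc1-/-. In eWAT the same ratio was 35.0 and 28.2 in the libraries labelled Crtc1+/+ and 59.0 and 41.2 in those labelled Crtc1-/-. Rbp4 CPM ranged from 32.4 to 8128 over the 8 libraries, and its ratio to the 13 hepatocyte markers from 26.3 to 59.0. The highest ratio was in eWAT replicate 1 labelled Crtc1-/-. Per 1000 counts of the albumin gene Alb alone, Rbp4 counted 681 in that library and between 43.8 and 79.5 in the rest. The narrow range thus depended on the markers used. Rarres2 counted between 1.84 and 4.10 per 1000 in liver, and 12.3, 26.4, 69.9 and 4.40 in the eWAT libraries labelled Crtc1+/+ replicates 1 and 2 and Crtc1-/- replicates 1 and 2, in that order. In every eWAT library the ratio of Rarres2 was above that of every liver library, with the closest approach in the library rich in hepatocyte markers. How much of the Rbp4 counts in eWAT came from hepatocyte RNA was not tested.

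**Figure D4:**
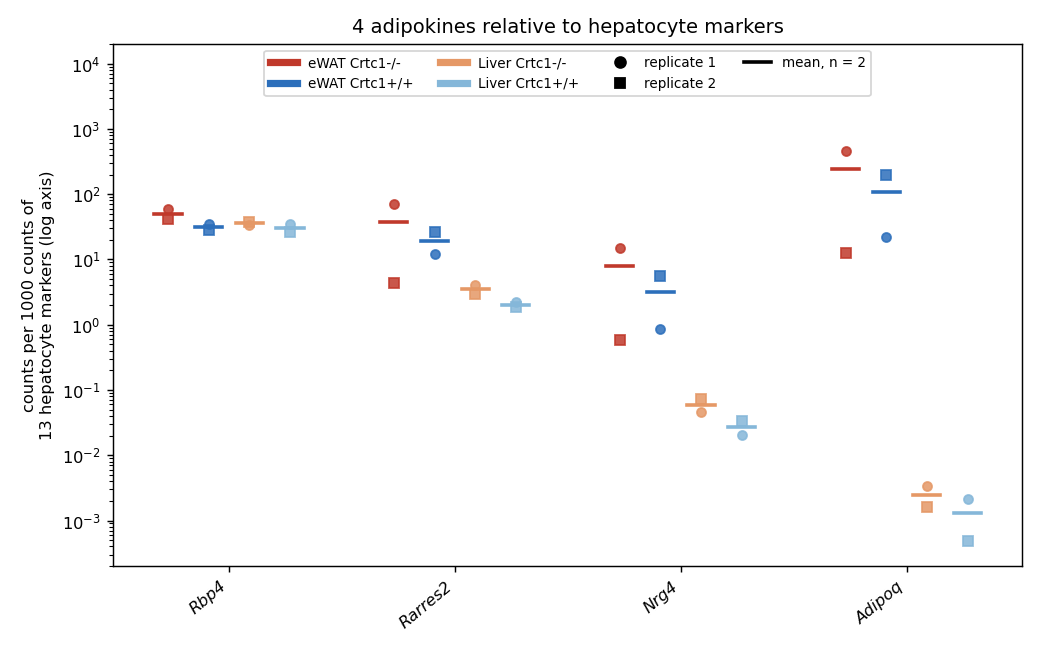
Counts of Rbp4, Rarres2, Nrg4 and Adipoq per 1000 counts of 13 hepatocyte markers (log axis) in each of the 8 libraries, with bars for the mean of 2. Rbp4 spans 26.3 to 59.0 over both tissues, while the eWAT points of the other 3 lie above all their liver points.

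In liver the labelled genotypes were compared for the 5 adipokines that passed the expression filter, Rbp4, Rarres2, Nampt, Nrg4 and Cfd. Of these 5, 0 had an adjusted p under 0.05, against 0.0854% of 11707 genes tested, and DESeq2 and limma also called 0. At an unadjusted p under 0.05 there were 3, all higher in the liver libraries labelled Crtc1-/-, against 17.3% of all genes in either direction. These 3 were Nampt, Rarres2 and Nrg4, whose groups also did not overlap, as was true in this direction of 25.8% of all genes. At the study's threshold 1 of the 5 was higher, Nampt, against 2.84% of all genes.

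Nampt was at 8.73 and 13.6 CPM in the liver libraries labelled Crtc1+/+ and at 19.3 and 25.7 CPM in the liver libraries labelled Crtc1-/- (log2 fold change 1.01, SE 0.31, adjusted p = 0.187). Nrg4 was at 3.95 and 7.19 CPM against 8.64 and 15.6 CPM (1.12, SE 0.39, adjusted p = 0.219). Rarres2 was at 430 and 391 CPM against 770 and 654 CPM (0.80, SE 0.25, adjusted p = 0.195). All 3 were separate by genotype, and none passed. Without liver replicate 1 labelled Crtc1-/-, 2 adipokines had an adjusted p under 0.05, Nampt (1.21, adjusted p = 0.00568) and Nrg4 (1.495, adjusted p = 0.000772), in a fit that called 1507 genes. Rbp4, at 6720 and 5590 CPM against 6377 and 8128 CPM, overlapped (0.24, SE 0.27, adjusted p = 0.668), and so did Cfd, at 2.62 and 0.420 CPM against 3.77 and 1.11 CPM (0.69, SE 0.77, adjusted p = 0.669). Beside these results, the epididymis markers, at 0.000264% and 0.000245% of counts in the liver libraries labelled Crtc1+/+, held 0.00902% and 0.00131% in the liver libraries labelled Crtc1-/-, and their part in the liver values was not tested.

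The other 5 adipokines were close to the limit of detection in liver. Lep had 1 and 0 counts in the libraries of each genotype, Apln had 1 count in all 4 libraries together and Sfrp5 had 3, so no fold is given for them. Adipoq had 8 and 2 counts in the liver libraries labelled Crtc1+/+ and 12 and 6 in the liver libraries labelled Crtc1-/-, and Retn had 10 and 0 against 9 and 2. A floor of 3 counts was between 0.154 and 0.175 CPM in these libraries. Such a floor covers counting error only.

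Comparing tissues within one genotype showed where each transcript was found. In mice labelled Crtc1+/+, 6 of the 10 adipokines were higher in eWAT (35.0% of the 15587 genes tested were) and 3 were lower (19.8% were). In mice labelled Crtc1-/-, 7 were higher in eWAT (18.9% of genes) and 1 was lower (8.89%). With TMM over 8 libraries the median of all genes lay at 0.61 in the first comparison and 0.20 in the second, and at 2.003 and 1.33 with library-size scaling, so values near these sizes depend on the scaling. Library-size scaling also moved the genes called higher in eWAT from 5461 of 8552 to 10702 of 11826 in Crtc1+/+, and from 2945 of 4330 to 7022 of 7127 in Crtc1-/-. The first count stayed between 7 and 9 called adipokines when a library was left out, and the second fell from 8 to 5 without either liver library labelled Crtc1-/-.

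Adipoq, Retn and Cfd were higher in eWAT in both genotypes. The log2 difference between eWAT and liver in Crtc1+/+ was 8.16 (SE 0.82) for Adipoq, 7.35 (1.30) for Retn and 8.09 (1.20) for Cfd. In Crtc1-/- it was 10.79 (0.89), 10.75 (1.46) and 10.09 (1.29), with adjusted p between 0.000582 and 0.00449 over these 6 tests. Their liver counts were low, so the sums of counts give a second view. Adipoq totalled 6931 counts in eWAT and 10 in liver in Crtc1+/+, a ratio per library total of 758 (95% counting interval 412 to 1581), and 73870 and 18 in Crtc1-/-, a ratio of 4041 (2557 to 6819). Lep totalled 813 and 1 in Crtc1+/+ (ratio 889, interval 159 to 35163) and 12146 and 1 in Crtc1-/- (11960, interval 2146 to 472446). The intervals of Lep, which rest on 1 liver count each, are wide and hold the ratio of Adipoq in both genotypes. Against the floor of 3 counts over both libraries, Apln was at least 28.4-fold and Sfrp5 at least 11.3-fold higher in eWAT than in liver in Crtc1+/+, where both had 0 liver counts. In Crtc1-/- the ratios were 472 (interval 84.3 to 18669) for Apln and 80.4 (interval 27.2 to 393) for Sfrp5.

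Rbp4 and Rarres2 were lower in eWAT than in liver in Crtc1+/+, and Rarres2 also in Crtc1-/-. Rbp4 differed by -6.95 in Crtc1+/+ (SE 1.67, adjusted p = 0.0131) and by -2.59 in Crtc1-/- (SE 1.36, adjusted p = 0.182). Without eWAT replicate 2 labelled Crtc1-/- the latter was -5.77 (adjusted p = 0.0119), and DESeq2 also called it (-2.68, adjusted p = 0.0342), while the Crtc1+/+ call was lost without eWAT replicate 2 labelled Crtc1+/+ (-6.18, adjusted p = 0.0663). Rarres2 differed by -4.26 in Crtc1+/+ (SE 0.56, adjusted p = 0.00164) and by -1.83 in Crtc1-/- (SE 0.50, adjusted p = 0.0363), and the last value lost its call in 9 of 16 alternatives. Nampt did not pass in either genotype (0.28, SE 0.37, adjusted p = 0.544, and -0.79, SE 0.37, adjusted p = 0.144), and its direction turned with library-size scaling in Crtc1-/- (0.31) and with quantile-normalized FPKM in Crtc1+/+. It passed with library-size scaling in Crtc1+/+ (1.68, adjusted p = 0.00612) and with the replicate block in Crtc1-/- (-0.79, adjusted p = 0.0315).

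Nrg4 passed in opposite directions in the 2 genotypes. It was lower in eWAT than in liver in Crtc1+/+ (-1.21, SE 0.39, adjusted p = 0.0345), although library-size scaling gave 0.19, and higher in eWAT in Crtc1-/- (1.47, SE 0.38, adjusted p = 0.0304). By summed counts per library total, without TMM, the eWAT to liver ratio was 1.14 (interval 0.941 to 1.38) and 6.19 (interval 5.59 to 6.86). The first call was lost in 6 of 16 alternatives, with adjusted p up to 0.215 when a library was left out, and the second in 3, among them the fits without liver replicate 1 (adjusted p = 0.141) or replicate 2 (adjusted p = 0.0507) labelled Crtc1-/-. The difference of the genotype changes between the tissues was tested with an interaction term, and 1 of the 10 adipokines passed, Nrg4, against 3.78% of all genes. The Nrg4 change in eWAT exceeded that in liver by 2.68 (SE 0.54, adjusted p = 0.0348). Rarres2 (2.43, SE 0.70, adjusted p = 0.0815), Adipoq (2.63, SE 0.94, adjusted p = 0.135) and Rbp4 (4.36, SE 1.90, adjusted p = 0.194) did not pass, and Nampt was at -1.07 (SE 0.52, adjusted p = 0.237). DESeq2 called 5 adipokines and limma on quantile-normalized log2(FPKM + 1) called 6, in fits that called 13.2% and 16.3% of all genes in either direction, against 6.94% in edgeR. The Nrg4 call was lost in 7 of 16 alternatives, which were library-size scaling and the fits without any one of the 4 liver libraries or the 2 eWAT libraries labelled Crtc1+/+, with adjusted p up to 0.115 and values from 2.18 to 3.16 when a library was left out.

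Levels of different adipokines were compared as FPKM, the deposited unit, in which fragments are divided by the length of the transcript and the size of the library. In eWAT replicate 1 labelled Crtc1-/-, Cfd had rank 2, Retn rank 8 and Adipoq rank 27 of 19348 genes, and in replicate 2 their ranks were 14, 82 and 90. In the eWAT libraries labelled Crtc1+/+ the ranks were 123 and 69 for Cfd, 498 and 337 for Retn, and 784 and 428 for Adipoq. The order Cfd, Retn, Adipoq was thus the same in all 4 eWAT libraries. Mean FPKM in the eWAT libraries labelled Crtc1-/- was 7907 ± 4463 for Cfd, 2879 ± 3444 for Rbp4, 2822 ± 2204 for Retn and 1858 ± 958 for Adipoq (SD, n = 2 each), so the SDs of neighbours in that order overlapped. Rarres2 followed at 729 ± 37.9, Lep at 107 ± 56.0 and Nrg4 at 44.3 ± 12.9, and Nampt (6.45 ± 0.438), Apln (4.37 ± 2.55) and Sfrp5 (3.87 ± 1.24) lay lowest, again close to each other. In the eWAT libraries labelled Crtc1+/+ the mean FPKM was 1384 ± 273 for Cfd, 256 ± 55.3 for Retn, 179 ± 71.2 for Adipoq, 164 ± 168 for Rbp4 and 94.9 ± 53.6 for Rarres2, then 7.97 ± 3.37 for Nampt, 7.35 ± 4.71 for Lep and 3.58 ± 0.488 for Nrg4, with Apln (0.725 ± 0.177) and Sfrp5 (0.490 ± 0.184) last. Nampt was therefore above Lep in mean in one genotype and far below it in the other.
In liver Rbp4 ranked between 10 and 16 and Rarres2 between 72 and 139 in the 4 libraries, and no other adipokine ranked better than 3627.

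Adipokines act through receptors and binding partners, of which 32 were in the table and all 32 were tested in eWAT. Of these 7 passed, 6 higher and 1 lower in the eWAT libraries labelled Crtc1-/-, against 12.2% of all genes called (6.65% higher, 5.54% lower). DESeq2 called 15, in a fit that called 4620 of 15391 genes, and the fit without eWAT replicate 1 labelled Crtc1-/- called 12, in a fit that called 3073 of 16196. Adipor2, an adiponectin receptor, was at 111 and 146 CPM in the eWAT libraries labelled Crtc1+/+ and at 879 and 810 CPM in the eWAT libraries labelled Crtc1-/- (2.72, SE 0.37, adjusted p = 0.0223). Cdh13, or T-cadherin, which holds adiponectin at cell surfaces, was at 21.2 and 20.8 against 327 and 223 CPM (3.71, SE 0.35, adjusted p = 0.0165). Adipor1, at 160 and 195 against 321 and 264 CPM, did not pass (0.72, adjusted p = 0.181). Scaled on adipocyte markers, Adipor2 was at -0.77, Adipor1 at -2.80 and Cdh13 at 0.13. Without eWAT replicate 2 labelled Crtc1-/-, Adipor2 was at 2.74 (adjusted p = 0.0103) and Cdh13 at 3.93 (adjusted p = 0.00442).

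Both signalling receptors of chemerin rose. Cmklr1 was at 13.3 and 13.7 CPM in the eWAT libraries labelled Crtc1+/+ and 202 and 235 CPM in the eWAT libraries labelled Crtc1-/- (4.01, SE 0.30, adjusted p = 0.0153). Gpr1 rested on 2 and 4 counts in the Crtc1+/+ libraries, at 0.0962 and 0.207 against 9.67 and 6.59 CPM (5.69, SE 0.77, adjusted p = 0.0223). The apelin receptor Aplnr, a gene of endothelium, was at 13.3 and 15.8 against 407 and 113 CPM (4.16, SE 0.72, adjusted p = 0.0316), and the leptin-induced inhibitor Socs3 was at 6.25 and 3.89 against 28.7 and 19.1 CPM (2.23, SE 0.46, adjusted p = 0.0447). The leptin receptor Lepr, at 3.32 and 4.20 against 1.59 and 5.20 CPM, overlapped (-0.15, adjusted p = 0.903), as did the resistin receptor Cap1, at 232 and 222 against 271 and 194 CPM (0.04, adjusted p = 0.945). Without eWAT replicate 2 labelled Crtc1-/-, Cmklr1 was at 3.87 (adjusted p = 0.00460), Gpr1 at 5.90 (adjusted p = 0.0208), Aplnr at 4.77 (adjusted p = 0.00430) and Socs3 at 2.48 (adjusted p = 0.0393). Without replicate 1 of that group Aplnr was at 2.96 (adjusted p = 0.00600) and Socs3 lost its call (adjusted p = 0.0631). Socs3 was below 0 when scaled on adipocyte markers (-1.42). The lowest values over 16 alternatives were 0.20 for Cmklr1, 0.14 for Aplnr and 2.06 for Gpr1, and each lost its call in 5 of them.

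The neuregulin receptor Erbb3 was the 1 that fell, from 13.03 and 24.3 CPM in the eWAT libraries labelled Crtc1+/+ to 0.824 and 1.87 CPM in the eWAT libraries labelled Crtc1-/- (-3.79, SE 0.66, adjusted p = 0.0324), and it was at -4.54 (adjusted p = 0.0272) without eWAT replicate 2 labelled Crtc1-/-. Erbb4, which binds neuregulin 4, was at 0.818 and 1.09 against 0.110 and 0.0694 CPM (-3.29 in the fit, adjusted p = 0.0633). In the Crtc1-/- libraries that was 2 counts and 1 count. The epididymis markers held 8.57% and 9.92% of counts in the eWAT libraries labelled Crtc1+/+, and 0.00382% and 0.00156% in those labelled Crtc1-/-. Their part in the lower values of Erbb3 and Erbb4 was not tested. Ttr, or transthyretin, the partner of RBP4 in plasma, was at 262 and 21.5 CPM in the eWAT libraries labelled Crtc1+/+ and at 48.3 and 6963 CPM in the eWAT libraries labelled Crtc1-/- (4.63, adjusted p = 0.237), and -1.53 without eWAT replicate 2 labelled Crtc1-/-, the library with 10.3% of counts from hepatocyte markers. The RBP4 receptor Stra6 was at 5.15 and 6.58 against 1.65 and 0.0694 CPM (-2.74, adjusted p = 0.204). In liver 25 of the 32 were tested and 0 had an adjusted p under 0.05 in edgeR, DESeq2 or limma, while 2 had an unadjusted p under 0.05 in edgeR, against 17.3% of all genes, and 0 reached the study's threshold.

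**Figure D5:**
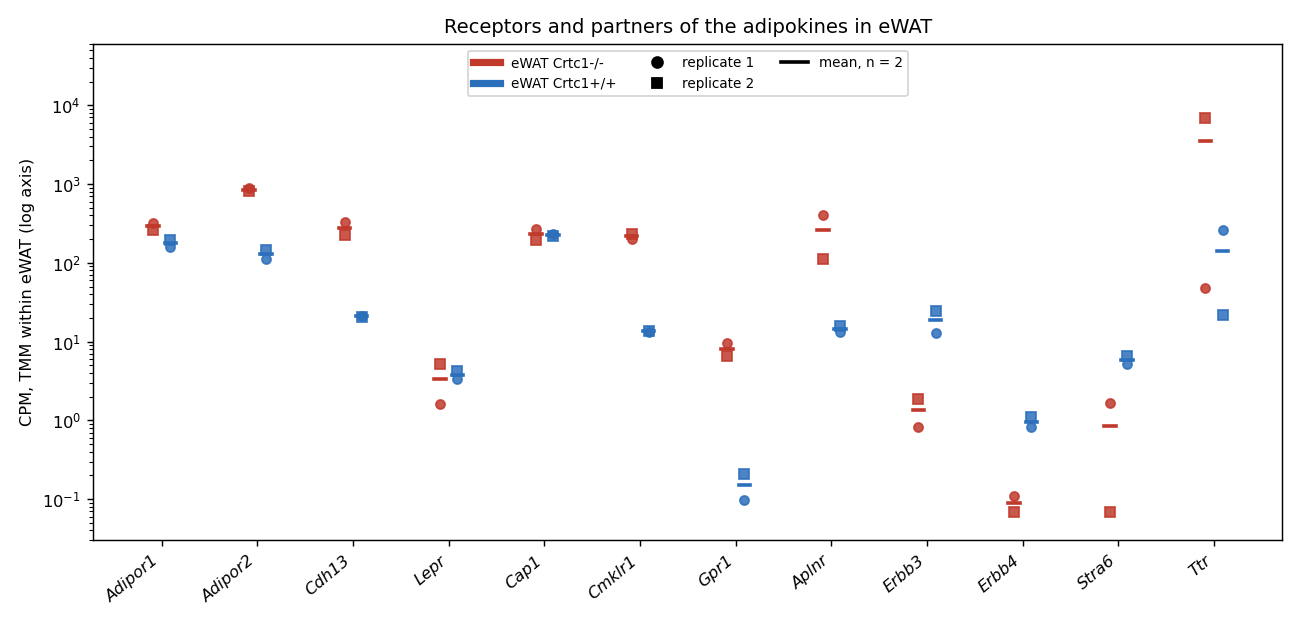
CPM (log axis) of 12 receptors and partners of the adipokines in the 4 eWAT libraries, with bars for the mean of 2. Adipor2, Cdh13, Cmklr1, Gpr1 and Aplnr lie higher in Crtc1-/- and Erbb3 lower, Lepr and Cap1 overlap, and Ttr is high in 1 Crtc1-/- library. With scaling on adipocyte markers, however, Adipor2 turns to -0.77 and Adipor1 to -2.80. Over 16 alternatives Cmklr1 falls as low as 0.20 and Aplnr as low as 0.14.

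Among 35 further adipokine genes 30 were tested in eWAT and 10 passed, 7 higher and 3 lower in the eWAT libraries labelled Crtc1-/-, beside 6.65% and 5.54% of all genes. Angptl4, an inhibitor of lipoprotein lipase induced by fasting, was at 28.6 and 73.3 CPM in the eWAT libraries labelled Crtc1+/+ and 1338 and 1692 CPM in the eWAT libraries labelled Crtc1-/- (4.89, SE 0.66, adjusted p = 0.0221). Npr3, the clearance receptor for natriuretic peptides, changed by 4.30 (adjusted p = 0.0279) and haptoglobin, Hp, by 4.12 (adjusted p = 0.0469). The lowest values over 16 alternatives were 1.37 for Angptl4, 0.73 for Npr3 and 0.25 for Hp. Their calls were lost in 4, 5 and 7 of the 16, in that order. Hp is also a liver protein, and was at 285 and 130 against 1654 and 5561 CPM. The 3 that fell were Lcn2, Spx, which encodes spexin, and the glypican Gpc4. Lcn2 was at 5876 and 5249 against 237 and 42.0 CPM (-5.32, adjusted p = 0.0411). Spx had 30 and 42 counts against 1 in each Crtc1-/- library (-4.73 in the fit, adjusted p = 0.0347). Gpc4 changed by -1.59 (adjusted p = 0.0307). The epididymis markers fell in the same libraries, from 8.57% and 9.92% of counts to 0.00382% and 0.00156%. Their part in these 3 changes was not tested. Without eWAT replicate 2 labelled Crtc1-/-, Angptl4 was at 4.66 (adjusted p = 0.0125), Npr3 at 4.49 (adjusted p = 0.0209), Hp at 2.99 (adjusted p = 0.0166) and Lcn2 at -4.58 (adjusted p = 0.00430), while Spx (adjusted p = 0.115) and Gpc4 (adjusted p = 0.0527) lost their calls. Of the C1q/TNF relatives of adiponectin 9 were tested and 2 rose (6.65% of all genes did), C1qtnf1 (2.62, adjusted p = 0.0216) and C1qtnf9 (2.24, adjusted p = 0.0269), both of which were below 0 when scaled on adipocyte markers (-0.90 and -1.25). The medians were 0.89 over the 32 receptors and partners, 1.27 over the 30 further adipokines and 0.04 over the 9 C1q/TNF genes, against -0.05 over all genes. The calls on these lists were also lost without either eWAT library labelled Crtc1+/+, as all calls were.
In liver 23 of the further adipokines and 5 of the C1q/TNF genes were tested, and 0 of either had an adjusted p under 0.05 in edgeR, DESeq2 or limma, while 6 and 0 had an unadjusted p under 0.05 in edgeR, against 17.3% of all genes.

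The genes whose log2 CPM profile over the 8 libraries lay nearest to each adipokine, out of 11019 genes compared, were found by the root mean square distance after centring. For Retn the nearest was Cfd (distance 0.389 log2 units, r = 0.997), and for Adipoq the 2 nearest were Cfd (0.487, r = 0.995) and Retn (0.519, r = 0.994), so Cfd was the nearest gene to both. The nearest to Lep was Rgcc (0.402, r = 0.997), to Nrg4 Scarf1 (0.332, r = 0.973), to Apln Fbln2 (0.299, r = 0.994) and to Sfrp5 Rtl8c (0.448, r = 0.978). Rbp4 lay nearest to Tm6sf2 (0.243, r = 0.997), Rarres2 to Saa3 (0.147, r = 0.997) and Nampt to Syap1 (0.179, r = 0.942). These are descriptions over 8 libraries that share 2 tissues and their makeup.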

How the data were processed

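RNA-seq libraries of eWAT and liver, 2 per tissue and labelled genotype, were used, all 8. For 19348 genes the authors deposited estimated counts of reads without normalization, and FPKM. Between 5.44% and 9.98% of a library's counts were not whole numbers, and all were rounded. The submitters' processing notes name HISAT, Bowtie2 and GRCm38.p6, and the counting tool is not given in the sources used here, so reads shared between overlapping genes may be divided in an unknown way. Whether same-numbered liver and eWAT libraries share a mouse is not in the labels, and p-values measure only the spread between these libraries.

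Within each tissue, genes passed filterByExpr, TMM set the library scale, and edgeR 4.0.16 in R 4.3.3 gave quasi-likelihood tests, adjusted by Benjamini-Hochberg over every gene tested, with a call at an adjusted p under 0.05. CPM are rounded counts over the TMM-scaled library total. Tissue differences and the interaction came from 1 fit of all 8 libraries. Standard errors are the log2 fold change over the square root of F. Intervals of count ratios are exact 95% intervals of the summed counts, which cover counting error only and not the spread between libraries. The alternatives were DESeq2 1.42.0, limma 3.58.1 on quantile-normalized log2(FPKM + 1) and log2(FPKM + 0.1), other scalings and filters, each library left out, the epididymis markers removed, a block on replicate number, and a single fit of all 8 libraries. Scaling on the 4 adipocyte markers low in liver was chosen after seeing the data. The edgeR fit was tested on simulated data.

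The adipokines and all gene lists were chosen with earlier results of these data known. Genes named beside the adipokines were Crtc1, a fixed set of 10 receptors and partners, up to 4 called genes per direction of each list with the largest changes, and the nearest neighbours of each adipokine. Cdh13, Gpr1, Socs3 and the Hp, Lcn2 and C1q/TNF genes entered by that rule or as called genes. One gene that the rule names is not reported here. Positions came from GENCODE on GRCm38 and promoters from RefSeq.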

Additional observations from a re-analysis of the deposited data

Results flagged for a closer look

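The genotype difference of Nrg4 was larger in eWAT than in liver by 2.68 on the log2 scale (standard error 0.54, adjusted p = 0.0348 in edgeR's interaction test). Nrg4 was the 1 adipokine for which the 2 tissues differed in that test. Its call was lost in 7 of 16 alternatives, over which between 0 and 6 adipokines were called. All 2 of 2 libraries labelled Crtc1-/- were above both labelled Crtc1+/+ in each tissue, with 90.6 and 74.2 against 4.81 and 6.38 CPM in eWAT and 8.64 and 15.6 against 3.95 and 7.19 CPM in liver. Adipocyte markers held 4.27% and 2.38% against 0.263% and 0.440% of counts in the same eWAT libraries, and their part in the difference was not tested.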

How the results depend on the processing

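With 2 libraries per group, calls depended on single libraries. Of 10 adipokines, 7 were called in eWAT, 0 with the replicate block, 1 when scaled on the 18 adipocyte markers or on the 4 low in liver, and 0 to 8 when a library was left out. In the replicate block fit, and without either eWAT library labelled Crtc1+/+, no gene of all those tested was called. The other comparisons gave these ranges without 1 library each, 0 to 2 in liver (0 with all), 5 to 9 for eWAT against liver in Crtc1-/- (8) and 0 to 3 for the interaction (1). The interaction count was 5 with DESeq2, 6 and 5 with limma on log2(FPKM + 1) and log2(FPKM + 0.1), and 0 with library-size scaling. Correlations of the deviations of same-numbered libraries lay between 0.00860 and 0.152, the highest for eWAT and liver in Crtc1+/+. They cannot decide whether such libraries share a mouse, since 2 tissues of 1 mouse need not deviate together. The block otherwise moved no count of called adipokines. For eWAT against liver in Crtc1-/-, however, Rarres2 lost its call (adjusted p = 0.0513) and Nampt gained one (adjusted p = 0.0315). The cause was not tested in any of these cases.

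Values that changed sign were mostly near 0 or came from scaling on adipocyte markers, which moved the median of all eWAT genes from -0.05 to -3.58. On that scale the eWAT changes were -3.40 for Nampt, -0.18 for Sfrp5, -0.32 for Rarres2, -0.76 for Cfd, -0.69 for Apln, -3.54 for Cap1, -2.80 for Adipor1, -3.11 for Crtc1, -0.77 for Adipor2, -1.42 for Socs3, -0.90 for C1qtnf1 and -1.25 for C1qtnf9. With the 4 markers low in liver they were -3.63 for Nampt, -0.20 for Retn, -0.51 for Sfrp5, -0.71 for Rarres2, -1.08 for Cfd, -0.999 for Apln, -0.12 for Adipoq, -3.88 for Cap1, -3.10 for Adipor1, -3.46 for Crtc1, -1.06 for Adipor2, -0.21 for Cdh13, -1.81 for Socs3, -1.20 for C1qtnf1 and -1.53 for C1qtnf9. In eWAT Nampt and Cap1 were at -0.30 and -0.25 with library-size scaling, -0.19 and -0.17 with upper-quartile scaling, -0.067 and -0.064 with all 8 libraries in 1 fit, and -0.040 and -0.013 with a mean count of at least 50. With limma on log2(FPKM + 1) and log2(FPKM + 0.1), Cap1 was at -0.38 and -0.39, Lepr at 0.28 and 0.51, Erbb4 at 0.020 and 0.12, and Nampt, eWAT against liver in Crtc1+/+, at -0.20 and -0.27. Library-size scaling turned the tissue difference of Nrg4 in Crtc1+/+ to 0.19 and that of Nampt in Crtc1-/- to 0.31. Over the fits without 1 library, the eWAT change ran from -0.37 to 0.57 for Nampt, -1.27 to 0.48 for Lepr (0.05 without eWAT labelled Crtc1+/+ replicate 2), -0.22 to 0.23 for Cap1 and -1.53 to 7.46 for Ttr, the liver change of Cfd from -0.44 to 2.52, the tissue difference of Nampt in Crtc1+/+ from -0.26 to 0.66 and the Retn interaction from -2.70 to 4.73.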
